A study of Homo sapiens with 4 samples.

Results

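KLF2, KLF3, KLF4, KLF5, KLF6, KLF7, KLF9, KLF10, EGR1 and IER2 were examined as a group of 10 transcription regulators, picked by gene name from the 64253 genes of the count table. KLF and EGR proteins are zinc finger factors, whereas IER2 is a nuclear immediate early protein outside both families. RNA was sequenced from A549 cells, an established human lung adenocarcinoma line, in 2 groups of 2 libraries each. The first group was transfected with a plasmid for wild type NFATc2, and the second with one for NFATc2M, which lacks a short stretch of the DNA binding domain and served as the loss of function reference. Cells of both groups received OPNc-CM, the medium of HEK-293 T cells that secrete osteopontin isoform c, and both kept their own NFATC2 gene. Every difference below is NFATc2 over NFATc2M, and samples without a plasmid or without OPNc-CM were not analysed here. Nothing states that the replicates were separate cultures, so the p-values rest on a spread between libraries that may be technical.

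KLF proteins bind GC-rich and CACCC elements through zinc fingers at their C-terminal end and share much of their target sequence with the SP factors. KLF2, KLF4, KLF5, KLF6 and KLF7 act mostly as activators or in both directions, whereas KLF3 recruits the corepressor CtBP and KLF9 and KLF10 often repress. EGR1 is a classical immediate early gene, induced within minutes by ERK signaling through SRF and the ternary complex factors, and its protein is restrained by the NAB corepressors. NFAT factors bind a short GGAAA core once calcineurin has released them to the nucleus, and EGR family genes are known NFAT targets in T cells.

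KLF4 was the only one of the 10 genes that passed the test, and in NFATc2 samples it fell to 0.686 times its NFATc2M level. All 10 had enough reads to be tested. At an adjusted p of 0.05 from edgeR's quasi-likelihood test, 0 rose, 1 fell and 9 did not pass. Of all 17459 genes tested, 8.64% passed, 4.9% higher and 3.73% lower with NFATc2, so 1 call in 10 was near the background. At an unadjusted p under 0.05, 2 of the 10 passed (KLF4 and KLF7), against 23.3% of all genes. DESeq2 called 0 of the 10 (it gave no adjusted p for KLF9) and limma voom called KLF4 alone. The median log2 fold change of the 10 was 0.12, and that of all genes tested was 0.00061.

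The start regions of KLF4 and EGR1 are shown because KLF4 carried the single call and EGR1 is the member with the best known inducible promoter. Both windows run from 250 bases before to 50 bases after a gene start of RefSeq (GRCh38.p14). In KLF4, at chr9:107489720-107490019 on the minus strand, capitals mark the NFAT core GGAAA. It was searched on both strands and so is also marked as its reverse complement, TTTCC. In EGR1, at chr5:138465229-138465528 on the plus strand, capitals mark matches to the CArG box, the element that SRF binds.
KLF4: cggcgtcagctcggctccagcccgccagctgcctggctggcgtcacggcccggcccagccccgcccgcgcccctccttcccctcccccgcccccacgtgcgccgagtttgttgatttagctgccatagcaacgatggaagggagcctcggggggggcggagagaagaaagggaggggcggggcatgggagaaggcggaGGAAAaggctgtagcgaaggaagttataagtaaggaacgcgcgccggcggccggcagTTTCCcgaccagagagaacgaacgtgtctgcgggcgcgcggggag
EGR1: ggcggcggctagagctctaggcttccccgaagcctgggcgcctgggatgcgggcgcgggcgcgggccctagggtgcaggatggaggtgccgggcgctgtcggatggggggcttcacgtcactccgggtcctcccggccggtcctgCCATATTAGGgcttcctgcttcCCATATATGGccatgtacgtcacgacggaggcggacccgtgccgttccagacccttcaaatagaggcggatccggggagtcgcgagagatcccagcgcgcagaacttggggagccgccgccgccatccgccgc

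The KLF4 window held 2 matches to GGAAA, which occur in 61.2% of 35116 windows of this length, so that such a match is common. It also held 4 matches to the GC box GGGCGG (in 45.0% of windows) and 1 to the EGR site GCGNGGGCG (in 9.43%), which overlaps a GC box. The EGR1 window held 2 CArG boxes, found in 1.29% of windows, 1 EGR site and 0 matches to GGAAA. RefSeq windows were at hand for 8 of the 10 genes, with more than 1 start for KLF5 and KLF7. GGAAA was also present in the KLF2 window and in some of the windows of KLF5 and KLF7, and these letters were not in the windows of KLF6, KLF9 and IER2. A match is a string of letters and was not tested as a binding site.

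The levels of the 10 genes were compared per kilobase of exon. CPM is the count scaled to a common library size, corrected by TMM, edgeR's factor for library composition. The exon lengths are those of GENCODE 44 on GRCh38. The reads were counted on Ensembl release 94, whose exon lengths may differ. IER2 stood highest with a mean of 42.2 CPM per kilobase over the 4 libraries (35.5 to 47.6). KLF6 followed with 28.4 and KLF10 with 24.7, and their ranges overlapped. KLF5, at 16.3, lay apart from its neighbours. KLF7 (7.70), EGR1 (6.24), KLF2 (5.50), KLF4 (5.32) and KLF3 (4.98) formed a chain in which each range met the next. KLF9 was lowest at 0.82. The ranges span both groups, and neighbours within that chain did not differ beyond their spread over libraries. By mean CPM, KLF6 exceeded 94.2% of the genes tested and KLF9 exceeded 29.3%.

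**Figure D1:**
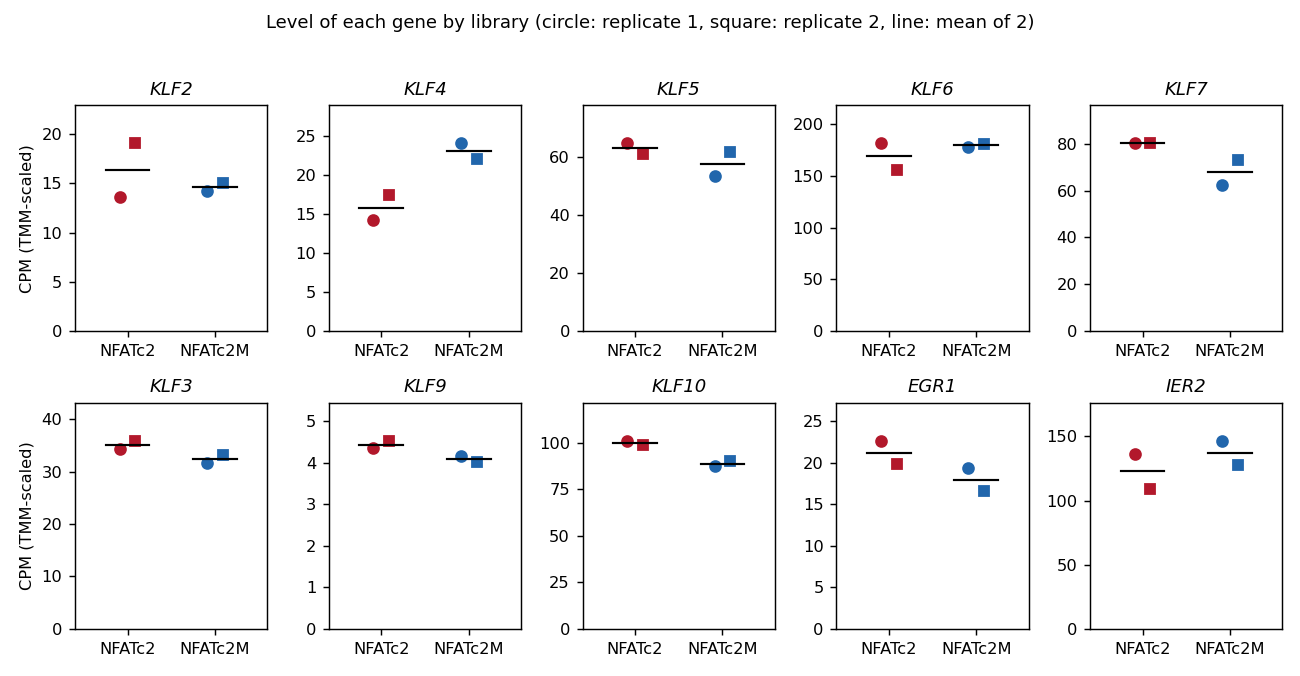
CPM of each of the 10 genes (y axis, from 0, own scale in each panel) in the NFATc2 and NFATc2M libraries, with replicate 1 as a circle, replicate 2 as a square and the mean of 2 as a line. KLF4 lies at 14.3 and 17.4 CPM with NFATc2 and at 24.2 and 22.1 CPM with NFATc2M, whereas in KLF2, KLF5, KLF6 and IER2 the libraries of the groups overlap.

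Among the activators, KLF4, a pluripotency and epithelial differentiation factor, was counted 308 and 405 times in NFATc2 samples, against 511 and 478 times in NFATc2M samples. It lies on chromosome 9 of GRCh38 from 107484852 to 107490482. Both NFATc2 libraries were below both NFATc2M libraries, with 15.9 ± 2.26 CPM against 23.1 ± 1.46 CPM (SD, n = 2 each). Its log2 fold change was -0.54 (standard error 0.17, 95% interval -0.88 to -0.21, adjusted p = 0.026 from edgeR). The call was lost with DESeq2 (log2 fold change -0.54, adjusted p = 0.052), and in the edgeR fits without NFATc2 replicate 1 (adjusted p = 0.30), without NFATc2 replicate 2 (0.074) or without NFATc2M replicate 1 (0.35). It was also lost with an offset for the trend of each library with exon GC content and length, which gave -0.30 (adjusted p = 0.27). Over the 15 alternatives KLF4 stayed negative in 15 and was called in 9, with adjusted p from 0.014 to 0.35.

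**Figure D2:**
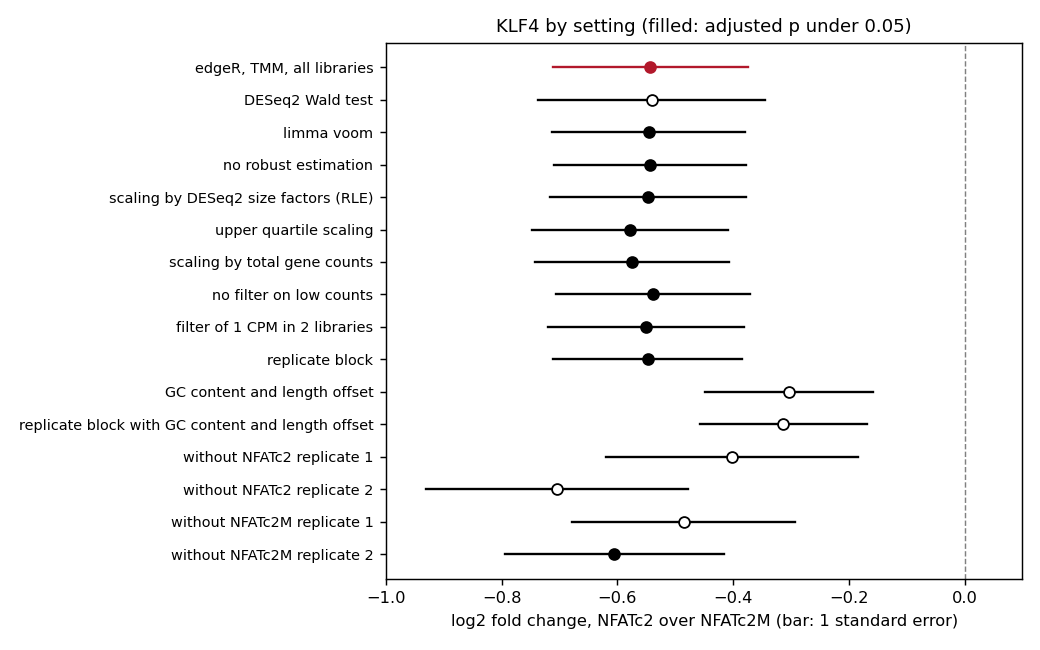
Log2 fold change of KLF4, NFATc2 over NFATc2M (x axis), under each setting (rows), with bars of 1 standard error and filled points where the adjusted p was under 0.05. All points lie below 0, between -0.70 without NFATc2 replicate 2 and -0.30 with the GC content and length offset.

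KLF2, which maintains quiescence in endothelium and lymphocytes, lies on chromosome 19 from 16324826 to 16328685. It counted 295 and 443 in NFATc2 libraries, against 301 and 326 in NFATc2M libraries. The high value came from NFATc2 replicate 2 alone, and the NFATc2 replicates differed by 0.48 on the log2 scale, against a median absolute difference of 0.18 between these replicates over all genes tested. The log2 fold change was 0.16 (SE 0.18, edgeR adjusted p = 0.64), and without NFATc2 replicate 2 it was -0.11. KLF5, a factor of proliferating epithelium on chromosome 13 from 73054976 to 73077541, had 1397 and 1414 counts with NFATc2, against 1131 and 1329 with NFATc2M. After scaling, its libraries overlapped at 64.6 and 60.9 CPM with NFATc2 and 53.5 and 61.4 CPM with NFATc2M, and the log2 fold change was 0.13 (95% interval -0.12 to 0.37). It ran from 0.024 without NFATc2M replicate 1 to 0.23 without NFATc2M replicate 2.

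KLF6, a ubiquitous activator linked to growth arrest, had the most reads of the 10, with 3923 and 3621 counts in NFATc2 libraries, against 3765 and 3918 in NFATc2M libraries. It lies on chromosome 10 from 3775996 to 3785281. The groups overlapped, with a log2 fold change of -0.089, and a 95% interval of -0.30 to 0.12 bounded the difference. KLF7, known from neuronal outgrowth, is located on chromosome 2 from 207074137 to 207173856 and was read with 1734 and 1863 counts with NFATc2, against 1321 and 1582 with NFATc2M. Both NFATc2 libraries were at 80.2 and 80.3 CPM, above 62.4 and 73.1 CPM in the NFATc2M libraries. Its log2 fold change of 0.24 (standard error 0.12) did not pass (adjusted p = 0.20 from edgeR), and over the 15 alternatives it ranged from 0.13 to 0.36 with no call.

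The factors that often repress, KLF3, KLF9 and KLF10, did not pass. KLF3, on chromosome 4 from 38664197 to 38701517, counted 741 and 832 in NFATc2 libraries, against 669 and 716 in NFATc2M libraries. The scaled libraries did not overlap (34.3 and 35.8 CPM with NFATc2, 31.6 and 33.1 CPM with NFATc2M), but the log2 fold change was only 0.12 (adjusted p = 0.68 from edgeR) and was -0.062 with the GC content and length offset. KLF9, a hormone-responsive factor on chromosome 9 from 70384604 to 70414657, had the fewest reads, 94 and 105 with NFATc2 and 88 and 87 with NFATc2M. Its 95% interval of -0.44 to 0.68 shows how little this depth could resolve. KLF10, a TGF-beta inducible early gene on chromosome 8 from 102648784 to 102655725, counted 2183 and 2297 in NFATc2 libraries, against 1849 and 1955 in NFATc2M libraries. The scaled libraries lay apart, at 101.0 and 99.0 CPM with NFATc2 and 87.4 and 90.3 CPM with NFATc2M, but the log2 fold change was 0.17 (SE 0.11, edgeR adjusted p = 0.38).

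EGR1, on chromosome 5 from 138465479 to 138469303, had 489 and 460 counts in NFATc2 libraries, against 409 and 358 in NFATc2M libraries. Both NFATc2 libraries (22.6 and 19.8 CPM) were above both NFATc2M libraries (19.3 and 16.5 CPM), but the gap between the groups was smaller than the distance between replicates. The log2 fold change was 0.24 (standard error 0.17, 95% interval -0.089 to 0.57, adjusted p = 0.40 from edgeR). With a library left out it ran from 0.14 without NFATc2M replicate 2 to 0.35 without NFATc2M replicate 1. IER2, on chromosome 19 from 13150411 to 13154911, had 2952 and 2537 counts with NFATc2, against 3099 and 2763 with NFATc2M. The groups overlapped, and its log2 fold change was -0.16 (SE 0.11, edgeR adjusted p = 0.42). It ran from -0.32 without NFATc2 replicate 1 to -0.011 without NFATc2 replicate 2. In each group, replicate 2 of IER2 was lower than replicate 1, by 0.32 (NFATc2) and 0.20 (NFATc2M) on the log2 scale.

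In GENCODE 44, exons of other genes on the opposite strand cover 52.2% of the exon bases of IER2 and 9.75% of those of KLF4. One of them, the long noncoding RNA ENSG00000267598, lies on chromosome 19 from 13153071 to 13154193, within the span of IER2, with all its exons opposite exons of other genes. It was listed with 2497 and 2129 counts in NFATc2 libraries, against 2513 and 2168 in NFATc2M libraries. These are 78.5% to 84.6% of the IER2 counts of the same libraries. Whether reads were counted by strand is not given in the sources used here, so reads of IER2 and of this partner cannot be told apart. Reads on no feature came to 1.02 to 1.04 times the gene counts, and how many reads of the 10 genes lie among them is not known. KLF3, with 3.91% of its exon bases opposite other exons, has an antisense partner as well. This partner, KLF3-AS1, had 156 and 149 counts with NFATc2, against 105 and 128 with NFATc2M. The log2 fold change of KLF3-AS1 was 0.32 (SE 0.25, edgeR adjusted p = 0.45) and did not pass. The gene annotated opposite KLF4, and another opposite IER2, were not among the genes counted, so no reads were assigned to them.

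**Figure D3:**
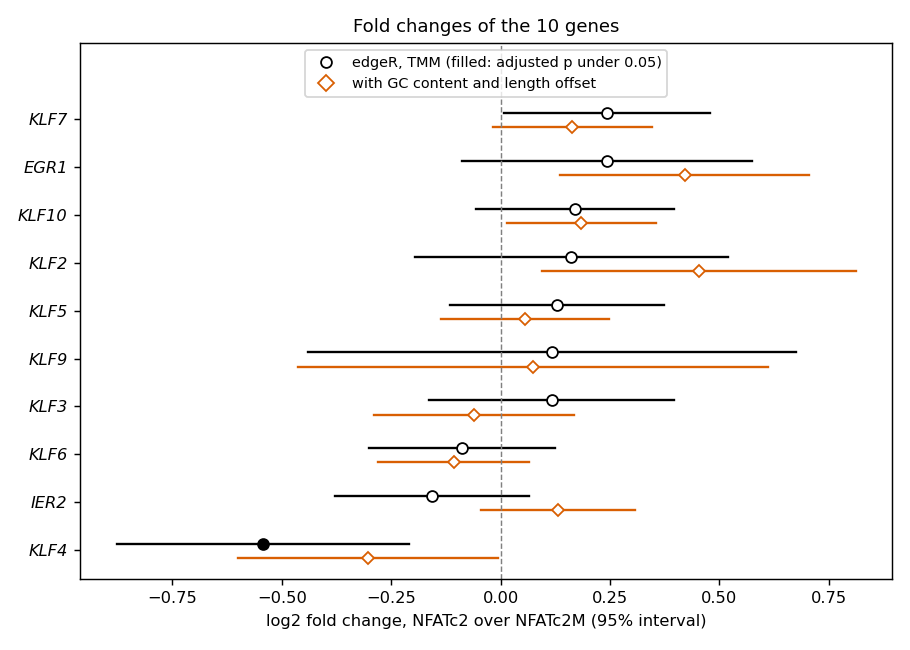
Log2 fold change of NFATc2 over NFATc2M (x axis) with 95% intervals for the 10 genes, from the edgeR fit (circles) and with the GC content and length offset (diamonds), filled where the adjusted p was under 0.05. KLF4 is the single filled circle, and IER2 and KLF3 lie on different sides of 0 in the 2 fits.

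Without overlap between groups, 5 of the 10 genes were higher in NFATc2 samples (KLF3, KLF7, KLF9, KLF10 and EGR1) and 1 was lower (KLF4). Over all genes tested 27.2% were higher and 26.0% lower without overlap. Added up, the 10 genes came to 653 and 602 CPM in NFATc2 libraries and 621 and 624 CPM in NFATc2M libraries, which overlapped.

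GC content moved with the fold changes. Over the 17163 genes with a known GC content, Pearson's r between log2 fold change and exon GC content was -0.46, across genes that share the 4 libraries. KLF4 has 58.4% GC in its exons, and genes of 56% to 59% GC had a median log2 fold change of -0.17, with 6.74% of them called lower. KLF2 (61.2% GC) and EGR1 (55.3% GC) had positive values where genes of like GC content had medians of -0.22 (59% to 62%) and -0.13 (53% to 56%). With the offset, EGR1 had a log2 fold change of 0.42 (SE 0.14, edgeR adjusted p = 0.090) and KLF2 of 0.45 (SE 0.17, adjusted p = 0.16), neither of which passed, and IER2 changed sign to 0.13. With the offset 0 of the 10 passed, against 3.49% of the 17163 genes in that fit, and 4 had an unadjusted p under 0.05 (KLF2, KLF4, KLF10 and EGR1), against 17.8% of those genes. The part of GC content in the KLF4 result was not tested beyond this offset.

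**Figure D4:**
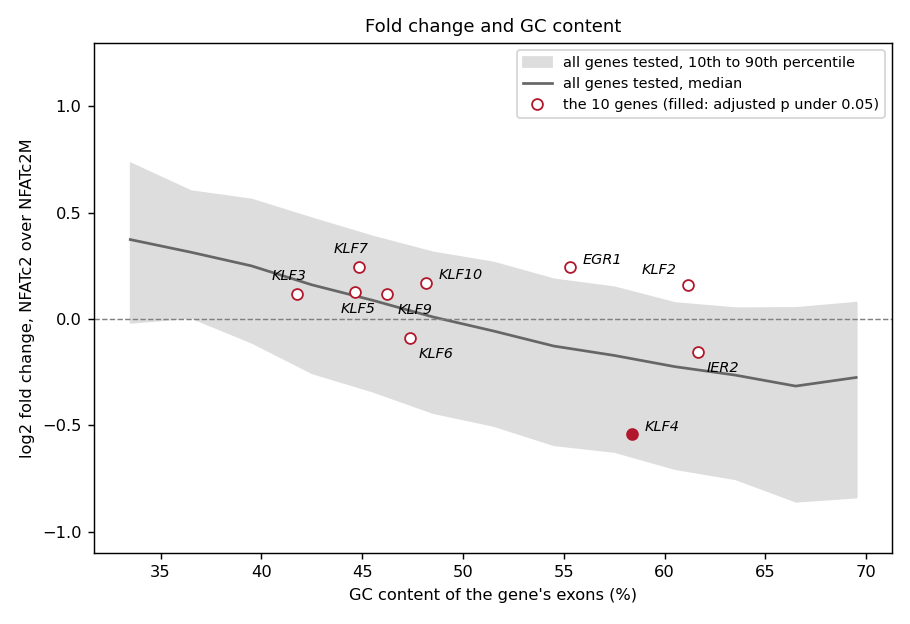
Log2 fold change of NFATc2 over NFATc2M (y axis) against exon GC content in percent (x axis), for the 10 genes (points, filled where the adjusted p was under 0.05) and for all genes tested (line for the median and grey band for the 10th to 90th percentile in GC bins). The median falls with GC content, KLF4 lies below the line but within the band, and EGR1 and KLF2 lie above the band.

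Of the other 19 SP and KLF factors listed, 10 were tested, and 0 rose or fell at an adjusted p of 0.05 from edgeR. Of the 10, 2 had an unadjusted p under 0.05, against 23.3% of all genes tested. DESeq2 and limma voom also called 0 of the 10, though DESeq2 gave no adjusted p for SP4, SP6 and SP9. The median log2 fold change of these 10 was 0.14. KLF13, a widely expressed factor, had 190 ± 9.53 CPM with NFATc2 and 196 ± 4.73 CPM with NFATc2M (SD, n = 2 each), the highest level of this list, and a log2 fold change of -0.045 (adjusted p = 0.85 from edgeR). SP1, the founding member of the SP factors, had 103 ± 2.60 CPM with NFATc2 and 92.9 ± 8.22 CPM with NFATc2M (adjusted p = 0.44 from edgeR). EGR2, EGR3 and EGR4, the closest relatives of EGR1, had at most 11 counts in any library and were too low to be tested.

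NAB2, a corepressor that EGR1 itself induces, was the 1 gene called of 3 tested among the EGR relatives, WT1 and the NAB genes, where 8.64% of all genes tested were called. It counted 545 and 528 in NFATc2 libraries, against 715 and 739 in NFATc2M libraries, which did not overlap. It fell by 0.50 on the log2 scale (SE 0.15, edgeR adjusted p = 0.019), while EGR1 had 0.24 in the same samples. With the GC content and length offset NAB2 had -0.22 and did not pass (adjusted p = 0.35), and its exons hold 61.2% GC. It also did not pass in edgeR with either NFATc2 library or NFATc2M replicate 1 left out (adjusted p from 0.077 to 0.27).

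Among 25 other immediate early genes, such as FOS, JUN, ATF3 and NR4A1, 0 passed in edgeR, DESeq2 or limma voom. DESeq2 gave no adjusted p for FOS, FOSB, BTG2, NR4A2, NR4A3 and ARC, so these could not pass there. At an unadjusted p under 0.05 from edgeR, 6 of the 25 passed, against 23.3% of all genes tested. Of the 25, 19 had negative and 6 positive log2 fold changes, with a median of -0.13. Their median GC content was 55.0%, against 48.7% over all genes tested, and with the offset 10 of the 25 were negative, with a median of 0.031. DUSP1, a phosphatase that ends MAPK signaling, and MCL1, a survival protein of the BCL2 family, were the most abundant. DUSP1 had 329 ± 2.30 CPM with NFATc2 and 381 ± 27.2 CPM with NFATc2M (SD, n = 2 each, adjusted p = 0.20 from edgeR), and MCL1 had 395 ± 29.4 and 375 ± 32.3 CPM in the same order (adjusted p = 0.71). Without the offset EGR1 had a positive value beside a list that was mostly negative. FOS (0.24), FOSL1 (0.18) and FOSB (0.10) were among its 6 positive genes. With the offset 15 of the 25 were positive, as was EGR1. The difference between EGR1 and the list was not tested.

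Upstream of EGR1, ELK3 and ELK4, ternary complex factors that partner SRF, rose in NFATc2 samples, and the other 4 of the 6 genes listed with them did not pass, where 4.9% of all genes tested were called higher. ELK3 had 3160 and 3327 counts with NFATc2, against 2000 and 2567 with NFATc2M (log2 fold change 0.44 ± 0.11 SE, edgeR adjusted p = 0.0053), and stayed called with the offset (0.33, adjusted p = 0.026). ELK4 had 1022 and 908 counts with NFATc2, against 579 and 714 with NFATc2M (log2 fold change 0.52 ± 0.14 SE, edgeR adjusted p = 0.0099), and did not pass with the offset (0.27, adjusted p = 0.20). The exons of ELK3 hold 43.4% GC and those of ELK4 39.1%. Without NFATc2 replicate 1 or NFATc2M replicate 1 neither passed, and without NFATc2 replicate 2 ELK3 did not (adjusted p = 0.097 from edgeR). Of 6 tested genes on the MEKK, ERK5 and MEF2 route that induces KLF2 in endothelium, MAP3K2 alone rose. Its exons hold 37.2% GC. Its log2 fold change was 0.40 (SE 0.13, edgeR adjusted p = 0.033), and 0.095 with the offset (adjusted p = 0.68). Leaving out either NFATc2 library or NFATc2M replicate 1 ended this call too, as did upper quartile scaling (edgeR adjusted p = 0.054) and total count scaling (0.062), so that it held in 8 of the 15 alternatives.

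Among 12 cofactors and ubiquitin ligases of KLF proteins, 2 rose, 1 fell and 9 did not pass, where 4.9% of all genes tested were called higher and 3.73% lower. WWP1, a ubiquitin ligase of KLF5, had 45.2 ± 1.07 CPM with NFATc2 and 32.6 ± 2.75 CPM with NFATc2M (SD, n = 2 each), a log2 fold change of 0.47 (SE 0.14, edgeR adjusted p = 0.017). HDAC2, a histone deacetylase, rose by 0.35 (edgeR adjusted p = 0.041), and SIN3B, a corepressor scaffold, fell by 0.36 (adjusted p = 0.042). The exons of WWP1 hold 39.3% GC, those of HDAC2 36.5% and those of SIN3B 56.0%. Of genes tested, 15.7% were called at 38% to 41% GC, 22.3% at 35% to 38% and 6.92% at 56% to 59%. CTBP1 and CTBP2, through which KLF3 represses, did not pass. With the offset 0 of these 12 passed, and 3 had an unadjusted p under 0.05, against 17.8% of the genes in that fit. HDAC2 then had a log2 fold change of 0.027. None of WWP1, HDAC2 and SIN3B passed when either NFATc2 library or NFATc2M replicate 1 was left out, and SIN3B did not without NFATc2M replicate 2 either. HDAC2 was called in 6 of the 15 alternatives and SIN3B in 7. Neither passed in edgeR without robust estimation or without the filter on low counts (adjusted p from 0.055 to 0.064), and HDAC2 did not with upper quartile or total count scaling (0.074 and 0.077).

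Of 15 tested genes reported as targets of KLF or EGR factors, 0 passed in edgeR, DESeq2 or limma voom. DESeq2 gave no adjusted p for F3 and TP73, so these could not pass there. At an unadjusted p under 0.05 from edgeR, 2 of the 15 passed, against 23.3% of all genes tested. FN1, the matrix protein fibronectin, and CCND1, cyclin D1, were the most abundant. FN1 had 626 ± 75.0 CPM with NFATc2 and 668 ± 26.8 CPM with NFATc2M (SD, n = 2 each), which overlapped (log2 fold change -0.094, edgeR adjusted p = 0.63). CCND1 had 365 ± 4.05 CPM with NFATc2 and 317 ± 3.53 CPM with NFATc2M (SD, n = 2 each), a log2 fold change of 0.20 that did not pass (edgeR adjusted p = 0.22) and one of 0.30 that did with the offset (adjusted p = 0.025). CDKN1A, a cell cycle inhibitor that KLF4 and KLF6 are known to induce, had a log2 fold change of -0.25 and did not pass (adjusted p = 0.15 from edgeR). With the offset CDKN1A had -0.028 (edgeR adjusted p = 0.91). It is named for its place beside KLF4, after its values were seen. The median over the 15 genes was -0.094.

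**Figure D5:**
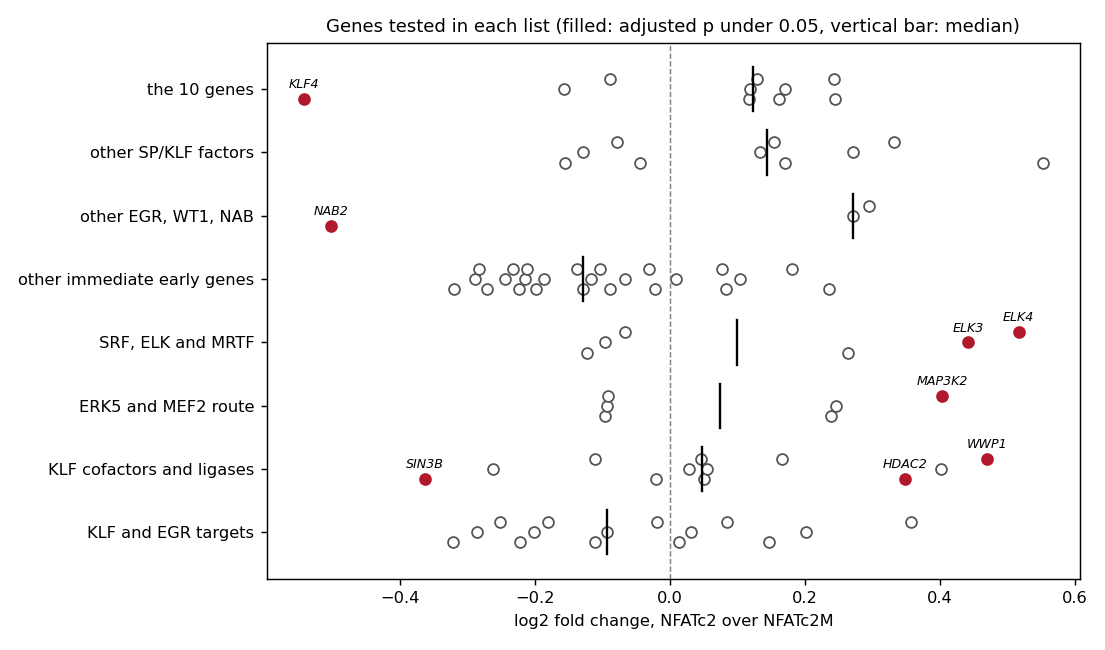
Log2 fold change of NFATc2 over NFATc2M (x axis) of the tested genes among the 10 and in the 7 related lists (rows), filled and named where the adjusted p was under 0.05, with the median as a vertical bar. The 10 genes have 1 filled point, KLF4, the SP and KLF list and the immediate early list have 0, and ELK4 reaches 0.52.

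The libraries held 21011786 to 23527259 counts on genes. NFATC2 had 47791 to 58522 counts per library with overlap between groups, but a count over the gene does not tell the mutant transcript from the wild type, so it does not check the labels. Of 6 A549 markers, 0 passed (edgeR, DESeq2 and limma voom) and 1 had an unadjusted p under 0.05 from edgeR, against 23.3% of all genes tested. With the offset KRT18 was called higher (0.43, edgeR adjusted p = 0.0030) and AKR1C1 lower (-0.28, 0.043), where 3.49% of the genes in that fit were called. EPCAM was low at 48 to 70 counts and had no adjusted p from DESeq2, and CDKN2A and CDKN2B, deleted in this line, had 0 counts. Of 5 genes known from HEK-293 T cells, 0 passed by the same tools, though DESeq2 gave no adjusted p for NEFM, NEFL, PAX2 and LIN28B. Of the 5, 0 had an unadjusted p under 0.05 from edgeR. Their summed level was 82.0 and 96.5 CPM in NFATc2 libraries and 82.3 and 79.1 CPM in NFATc2M libraries, and 0 of the 5 were at 0. INA made up most of these sums, with 67.6 and 80.3 CPM with NFATc2 and 70.5 and 64.9 CPM with NFATc2M. NEAT1, a nuclear RNA taken as a sign of RNA handling, was lower at 486 ± 96.4 CPM with NFATc2 and 643 ± 68.2 CPM with NFATc2M (SD, n = 2 each, adjusted p = 0.010 from edgeR), in the same direction as KLF4 and NAB2, and MALAT1, another nuclear RNA, had a log2 fold change of -0.31 (adjusted p = 0.082). With the offset MALAT1 was called lower (-0.47, edgeR adjusted p = 0.0051) and NEAT1 did not pass (-0.48, 0.17). Mitochondrial genes held 6.81% and 6.86% of counts with NFATc2 and 6.08% and 6.74% with NFATc2M. Their part in the KLF4 result was not tested.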

How the data were processed

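The mRNA of 4 A549 samples, taken with capture beads, was sequenced in read pairs, and the groups and replicate numbers are those of the sample labels. Per the labels and the study's methods, the authors used HISAT2 on GRCh38, SAMtools 1.18 and HTSeq 0.11.2 with Ensembl genes (release 94). No HISAT2 version or strand setting is given in the sources used here. The deposited values are counts without normalization. Only the columns that carry sample names were read, and 4 further value columns with no sample name, identical to them gene by gene, were not used. The summary categories of HTSeq (56.4% to 57.4% of each total) were left out.

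The test was that of edgeR 4.0.16 in R 4.3.3 (filterByExpr, TMM, estimateDisp, robust glmQLFit, glmQLFTest) without a block over all 17459 genes that passed the filter, with Benjamini-Hochberg adjustment over them. Standard errors were the log2 fold change divided by the root of F. DESeq2 1.42.0, limma voom 3.58.1 and the other alternatives are given in the closing section. The offset removes each library's spline trend (5 degrees of freedom each) with exon GC content and length of GENCODE 44. RefSeq promoter windows were read from a table on GRCh38.p14.

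The members and lists were chosen with earlier results of these data known. One gene of the list of target genes is not reported here and is left out of its counts. All 10 members are named. Of each list, the called genes (at most 4, by p) are named, or else the 2 with the highest CPM. Genes given beyond this rule (CTBP1, CTBP2, CDKN1A and examples of a list) were chosen after their values were seen.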

Additional observations from a re-analysis of the deposited data

How the results depend on the processing

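Of 345 values of 23 named genes under 15 alternatives, 285 kept their direction and side of the threshold, 47 kept the direction but lost the call, 2 gained one (CCND1 with the offset, with and without the block) and 11 changed sign. With a library left out the sign changed for KLF2 (-0.11 to 0.39) and KLF6 (-0.20 to 0.0099) without NFATc2 replicate 2, for KLF13 (-0.10 to 0.0095) and FN1 (-0.23 to 0.027) without NFATc2 replicate 1 and for MCL1 (-0.016 to 0.17) without NFATc2M replicate 1. The cause was not tested. With the GC content and length offset, and with that offset plus the replicate block, it changed for KLF3 (-0.062 and -0.061), IER2 (0.13 and 0.13) and KLF13 (0.15 and 0.15). The 0 calls among the 10 genes in the higher direction held under every alternative (at an unadjusted p under 0.05, 1 was higher in edgeR and 3 with the offset). The 1 call in the lower direction became 0 with DESeq2, with the offset and with the offset plus block, and ranged from 0 to 1 when a library was left out. Over all genes, 856 higher and 652 lower calls became 384 and 215 with the offset, 479 and 270 with the offset plus block, 556 higher with scaling by total gene counts, and 405 lower with DESeq2. With a library left out they ranged from 9 to 1273 and from 64 to 690, lowest without NFATc2M replicate 1. In such fits a single library is assumed to vary as the other group does. Upper quartile scaling turned the balance to 662 higher and 864 lower, and total counts to 556 and 707. With the replicate number as a replicate block, 1022 were higher and 737 lower, and KLF4 had -0.55 (adjusted p = 0.023 from edgeR). Deviations of same-numbered libraries had a correlation of 0.061 across genes, so the numbers were not taken as pairs. KLF9 and the listed genes named for this above had no adjusted p from DESeq2 and could not pass there. Depth limits KLF9, and EGR2, EGR3 and EGR4 could not be tested.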

Other observations

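Outside the calls of the report, KLF12 and SP3 had the largest log2 fold changes among the other SP and KLF factors. KLF12, a repressor known from AP-2 gene control, counted 274 and 319 in NFATc2 libraries, against 157 and 229 in NFATc2M libraries, which did not overlap (log2 fold change 0.55 ± 0.20 SE, edgeR adjusted p = 0.066). SP3, an SP factor close to SP1, had 1840 and 2360 counts with NFATc2, against 1423 and 1757 with NFATc2M (log2 fold change 0.33 ± 0.12 SE, edgeR adjusted p = 0.058). Their exons hold 40.3% and 37.7% GC, and with the GC content and length offset they had 0.35 (adjusted p = 0.32) and 0.050 (adjusted p = 0.83).

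With the same offset 5 genes of the related lists passed in edgeR, and 4 of them were not called without it. The 5 were 1 of 10 other SP and KLF factors, 1 of 25 other immediate early genes, 2 of 15 targets and 1 of 6 genes listed with SRF. Of all 17163 genes in that fit, 3.49% passed. FOSL1, an AP-1 subunit, had a log2 fold change of 0.45 (adjusted p = 0.0025), KLF16 0.46 (adjusted p = 0.010), TGFB1, a growth factor gene that EGR1 can induce, 0.44 (adjusted p = 0.0021) and CCND1 0.30 (adjusted p = 0.025). Without the offset FOSL1 had 3308 and 2993 counts with NFATc2, against 2721 and 2603 with NFATc2M (log2 fold change 0.18, adjusted p = 0.33 from edgeR). ELK3 was called in both fits. These genes were chosen after their values were seen, and which of the 2 fits is nearer to the change in the cells was not tested.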
